A study of Mus musculus with 9 samples.

Results

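Glomeruli were isolated from mice whose podocytes lack Cosmc and from controls, and 45 genes of the actin cytoskeleton, non-muscle myosin and focal adhesions were followed in their RNA. The genes were taken by symbol from a general list that was chosen with earlier results of these data known, and no test was run on the set. Marcks and Marcksl1 are not analysed here, and 43 of the 45 were measured among 16867 genes in all. They comprise 2 actins, 2 crosslinkers, 6 myosin chains, 4 tropomyosins, 10 genes of filament assembly, 5 of severing, capping and bundling, 8 focal adhesion and LIM proteins, and 6 other regulators, among them Rac1, Cdc42 and Iqgap1. All 43 passed the filter on low values, and 40 of them are described one by one.

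Cosmc is the X-linked chaperone, listed under the symbol C1galt1c1, that is needed to make core 1 mucin-type O-glycans. The 4 Cosmc KO animals (Cosmc KO 1 to 4) carried Podo-Cre and a floxed Cosmc allele (genotype Podo-Cre; Cosmc Y/flox) and were 35, 34, 31 and 30 days old. Of the 5 controls, animals 1, 4 and 5 had Podo-Cre beside an intact allele (Podo-Cre; Cosmc Y/+) and were 35, 30 and 30 days old. Control 2 carried the floxed allele without Cre (Cosmc Y/flox, 34 days), and control 3 carried neither Cre nor the floxed allele (Cosmc Y/+, 31 days). All animals were males of the C57BL/6 strain, and the labels name the transgene as Podo-Cre without stating its promoter. Glomeruli were collected after perfusion with Dynabeads, so each library mixes podocytes with endothelial, mesangial and parietal cells in which the labels describe no deletion. In such bulk samples fewer cells of a type and less RNA per cell cannot be told apart.

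Actin monomers assemble into filaments that the Arp2/3 complex branches, tropomyosins coat, capping and severing proteins shorten, and non-muscle myosin II pulls on. Filaments end at focal adhesions, where talin, vinculin, zyxin and LIM proteins tie them to integrins, and GTPases such as Rac1 and Cdc42 switch filament assembly on and off. In podocytes this machinery holds the foot processes in shape on the glomerular basement membrane. Many of the genes are known targets of the transcription factor SRF, which binds a promoter element named the CArG box together with its actin-sensing partners, the MRTFs.

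Values are the authors' read counts after division by 1 size factor for each library, here called normalized read counts. Fold changes are on the log2(value + 1) scale, Cosmc KO minus control, with the standard error (SE) from limma and Benjamini-Hochberg adjusted p over 16764 genes. A gene is said to have risen or fallen only where that adjusted p was under 0.05. Depth over the listed genes was 35.0 to 58.1 M reads in Cosmc KO and 31.5 to 41.8 M in control libraries. C1galt1c1 itself had 1123, 939, 1030.5 and 751 in Cosmc KO 1 to 4, against 1552, 1508, 1487, 1385 and 1409 in controls 1 to 5, and the groups did not overlap (log2 fold change -0.63 ± 0.11, adjusted p = 0.0111).

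Of the 43 genes 14 rose and 0 fell, while 29 did not pass the threshold; over all genes tested 4.16% rose and 3.58% fell. None fell by edgeR or DESeq2 either, and of the 22 genes with an unadjusted limma p under 0.05, where 12.9% of all genes were higher, 0 were lower. The median log2 fold change was 0.26 over the 43 genes and 0.0035 over all genes, and 34 of the 43 values were positive, against 50.5% of all genes. In 17 genes every Cosmc KO library lay above every control library, which held for 5.83% of all genes, and in 0 was the order reversed, against 6.11%. The authors' deposited table called 18 of the 43 higher and 0 lower, where 8.58% of its genes were higher.

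The rise was spread over most roles. It took in 3 of 4 tropomyosins, 4 of 8 focal adhesion and LIM proteins, 2 of the 6 other regulators, 2 of 10 assembly genes, and 1 each of the crosslinkers, the myosin chains and the capping genes, but neither actin. Together the 43 genes made up 2.05%, 1.83%, 1.89% and 1.89% of all reads in Cosmc KO 1 to 4, against 1.82%, 1.55%, 1.71%, 1.68% and 1.68% in controls 1 to 5. The groups did not overlap, and the widest exact 95% binomial interval of these shares, which covers counting error only, spanned 0.0094 percentage points. Cosmc KO 1 was the highest of the 4 Cosmc KO libraries for 19 of the 43 genes and the highest of all 9 libraries for 15 of them, and control 1, of the same age, was the highest control for 28. How often these libraries were highest over all genes was not counted, so these numbers are not particular to the set.

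**Figure D1:**
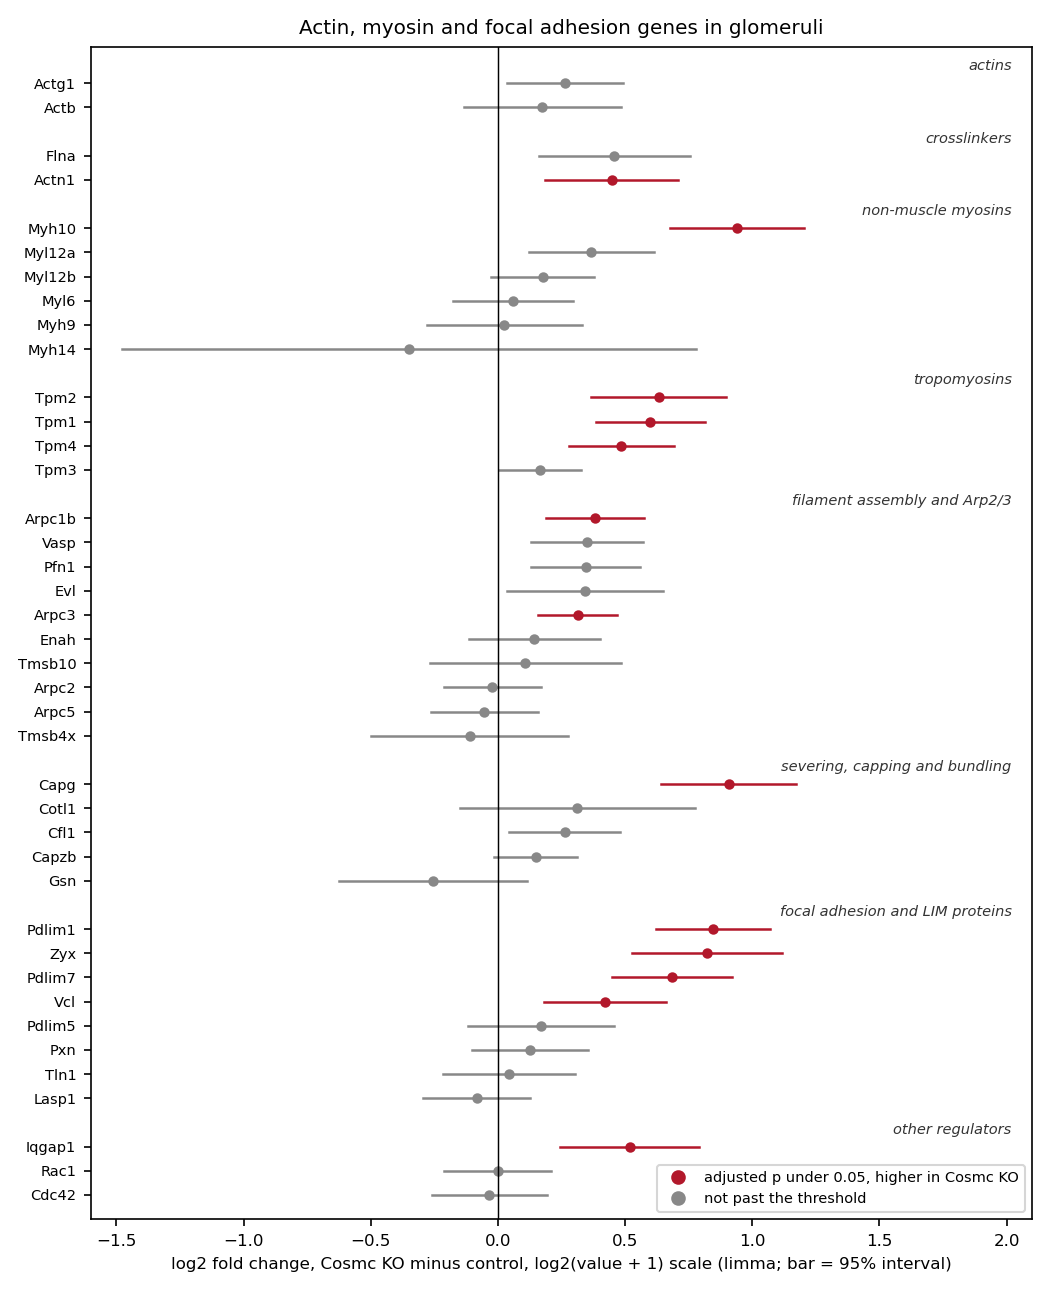
Log2 fold change (Cosmc KO minus control) of 40 of the 43 genes by role, with 95% confidence intervals from limma; red marks the 13 of them with adjusted p under 0.05. All red points lie right of 0, between 0.31 for Arpc3 and 0.94 for Myh10, and Myh14 has the widest interval.

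Non-muscle myosin II is a motor of paired heavy chains with essential and regulatory light chains, and mammals have heavy chains A, B and C, encoded by Myh9, Myh10 and Myh14. Of these only the B chain passed the threshold. Myh10 (chromosome 11, 68691559 to 68816632, plus strand, GRCm38, as are the positions that follow) had 13849, 12748, 14686 and 13035 in Cosmc KO 1 to 4, against 6893, 7519, 8834, 6759 and 5693 in controls 1 to 5. The lowest Cosmc KO library lay well above the highest control, and the rise was the largest of the 43 genes (log2 fold change 0.94 ± 0.12, adjusted p = 0.00203).

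Myh9, the A chain and the heavy chain with most reads, had 57417, 49554, 55089 and 44845 in Cosmc KO 1 to 4, against 63858, 46932, 51137, 45929 and 47219 in controls 1 to 5. The 2 sets of libraries overlapped throughout and the interval of the difference ran from -0.28 to 0.33 (log2 fold change 0.025 ± 0.14, adjusted p = 0.921). Myh14, the C chain, was sparse, with 74.7, 407, 479 and 307 in Cosmc KO 1 to 4, against 216, 574, 353, 325 and 275 in controls 1 to 5, and Cosmc KO 1 stood far below the other 8 libraries (log2 fold change -0.35 ± 0.51, adjusted p = 0.678). With the mean log2 level of proximal tubule markers as a covariate Myh14 was lower in Cosmc KO (-1.28, adjusted p = 0.0265, where 1.91% of all genes were lower), and it was the sole one of the 43 genes called lower under any setting. Without Cosmc KO 1 its log2 fold change was 0.24.

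The ratio of heavy chain B to heavy chain A was compared within each library, which removes the scaling between libraries. Myh10/Myh9 was 0.241, 0.257, 0.267 and 0.291 in Cosmc KO 1 to 4, against 0.108, 0.160, 0.173, 0.147 and 0.121 in controls 1 to 5. Every Cosmc KO ratio exceeded every control ratio (difference of log2 ratios 0.92, exact permutation p = 0.00794, adjusted p = 0.0476 over the 6 ratios compared; 0.00794 is the smallest p that the splits of 9 libraries can give). Per exon length, Myh10 took 24.4% ± 1.38 in Cosmc KO and 14.7% ± 2.37 in control glomeruli of heavy chain transcripts (SD, n = 4 and 5), and Myh9 74.8% ± 1.65 in Cosmc KO and 84.3% ± 2.69 in control glomeruli. Without 1 library, where a single ratio at the smallest possible p cannot pass adjustment over 6, the difference was 0.82 to 0.99 (adjusted p = 0.0571 to 0.171 in exact permutation tests).

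The light chains did not pass the threshold. The regulatory chains Myl12a and Myl12b had log2 fold changes of 0.37 (adjusted p = 0.0714) and 0.18 (adjusted p = 0.231), and the essential chain Myl6 had 0.059 (adjusted p = 0.742). The coding sequences of Myl12a and Myl12b are 96.5% identical where aligned, so the split of reads between them is uncertain. Myl12a was among the genes higher in the authors' deposited table, and in limma it rose without control 1 (0.44, adjusted p = 0.0382).

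Tropomyosins are coiled coils that lie along the actin filament and set which myosins and severing proteins reach it. Tpm1 (chromosome 9, 67022590 to 67049406, minus strand) had 26223, 21944, 22234 and 20262 in Cosmc KO 1 to 4, against 16533, 14919.7, 14324, 14956 and 13844 in controls 1 to 5. Tpm2 had 4992, 5751, 5151 and 4156 in Cosmc KO 1 to 4, against 3944, 3308, 2854, 2921 and 3145 in controls 1 to 5. Tpm4 had 37194, 31627, 31464 and 30293 in Cosmc KO 1 to 4, against 23323, 23191, 24209, 23953 and 21624 in controls 1 to 5. In each of these 3 genes the groups did not overlap, and all 3 were higher in Cosmc KO. The log2 fold changes were 0.60 ± 0.096 for Tpm1, 0.63 ± 0.12 for Tpm2 and 0.49 ± 0.092 for Tpm4 (adjusted p = 0.00624, 0.0129 and 0.0133). Each kept its call in every one of the 9 fits that left out 1 library.

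Tpm3 also did not overlap between the groups, with a smaller difference that did not pass (log2 fold change 0.17 ± 0.073, adjusted p = 0.171). Per exon length Tpm4 was the main tropomyosin, with 67.4% ± 0.965 in Cosmc KO and 67.3% ± 1.52 in control glomeruli of tropomyosin transcripts (SD, n = 4 and 5), and Tpm3 took 8.81% ± 0.809 in Cosmc KO and 11.0% ± 0.905 in control glomeruli. The Tpm4/Tpm1 ratio was 1.42, 1.44, 1.42 and 1.49 in Cosmc KO 1 to 4, against 1.41, 1.55, 1.69, 1.6 and 1.56 in controls 1 to 5, and the groups overlapped through control 1 (difference of log2 ratios -0.11, exact permutation p = 0.0635, adjusted p = 0.127).

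**Figure D2:**
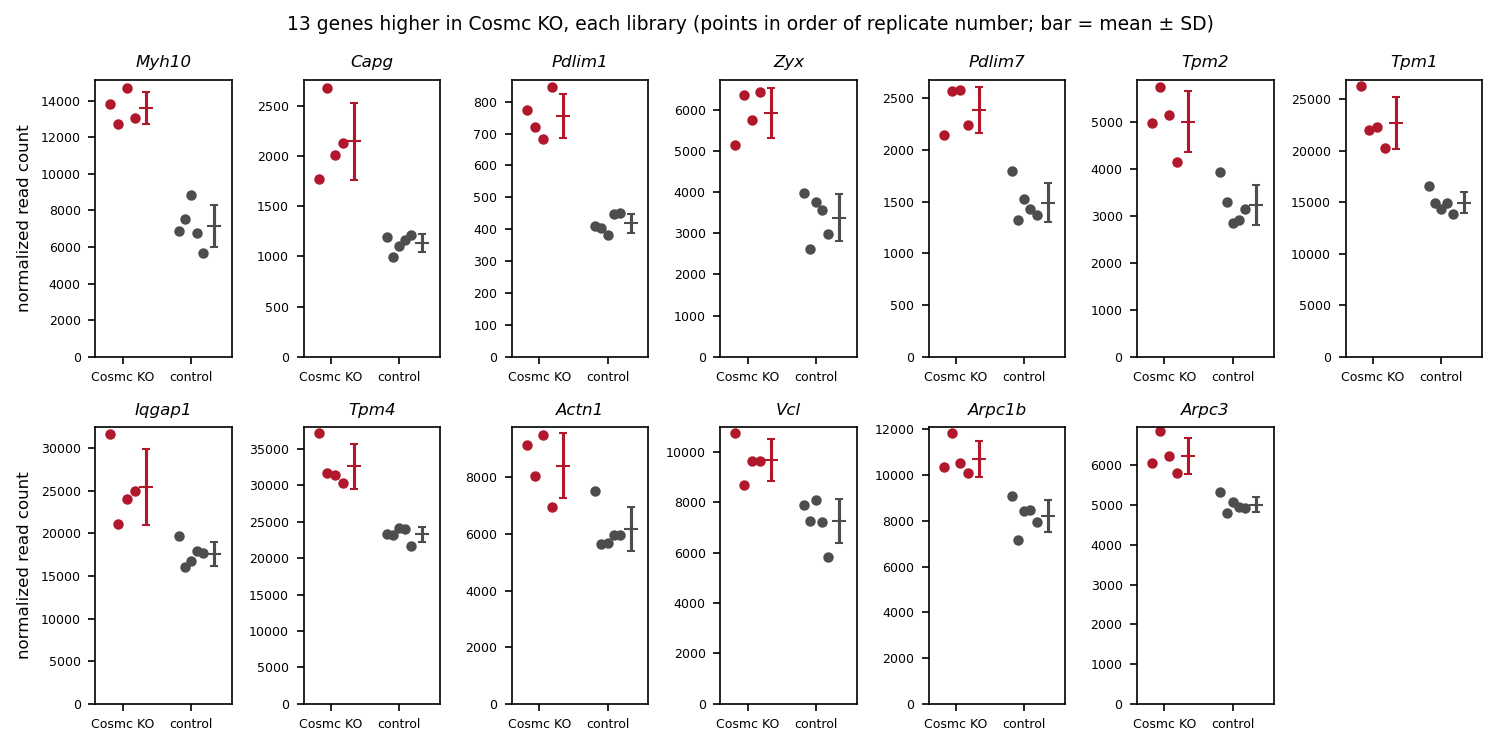
Normalized read counts (axes from 0) of 13 of the 14 genes higher in Cosmc KO in each library, with Cosmc KO left and control right, and the mean ± SD beside the points (n = 4 and 5). In 12 panels the groups do not overlap; in Actn1 the highest control (7534) lies above the lowest Cosmc KO library (6966).

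Among the filaments' building blocks, beta-actin (Actb) had the most reads of the 43 genes, with 105827, 100280.5, 110925 and 90967 in Cosmc KO 1 to 4, against 103739, 85291, 94671, 87922 and 80898 in controls 1 to 5. The groups overlapped (log2 fold change 0.17 ± 0.14, adjusted p = 0.428). Gamma-actin (Actg1) had 32958, 33697, 32395 and 36230.0 in Cosmc KO 1 to 4, against 29916, 29617, 24887, 31320.5 and 25497 in controls 1 to 5, so that Cosmc KO libraries lay above all controls by a small step that did not pass (log2 fold change 0.26 ± 0.10, adjusted p = 0.136). Actg1/Actb was 0.311, 0.336, 0.292 and 0.398 in Cosmc KO 1 to 4, against 0.288, 0.347, 0.263, 0.356 and 0.315 in controls 1 to 5, with overlapping groups (difference of log2 ratios 0.090, exact permutation p = 0.492, adjusted p = 0.738). The 2 coding sequences are 88.7% identical, and reads shared between them could move this ratio.

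The crosslinkers tie filaments into networks and bundles. Actn1, alpha-actinin 1, which bundles filaments near adhesions, had 9151, 8064, 9493 and 6966 in Cosmc KO 1 to 4, against 7534, 5654, 5692, 5975 and 5969 in controls 1 to 5. It rose (log2 fold change 0.45 ± 0.12, adjusted p = 0.0473), although control 1 lay above Cosmc KO 4, and the call was lost in the fits without Cosmc KO 2 or 3 or any of controls 2 to 5 (adjusted p = 0.0947 to 0.147). Flna, filamin A, which joins filaments at wide angles and binds integrins, had 38239.7 ± 3439.7 in Cosmc KO glomeruli and 28046 ± 4699 in control glomeruli (SD, n = 4 and 5; log2 fold change 0.46 ± 0.13, adjusted p = 0.0659). It passed without control 1 (0.55, adjusted p = 0.0267).

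Several genes control how filaments start and grow. Arpc1b (chromosome 5, 145114215 to 145130705, plus strand) and Arpc3, subunits of the branching Arp2/3 complex, both rose. Arpc1b had 10359, 11861, 10529 and 10112 in Cosmc KO 1 to 4, against 9081, 7183, 8417, 8497 and 7966 in controls 1 to 5. Arpc3 had 6049, 6852, 6230.2 and 5809 in Cosmc KO 1 to 4, against 5315, 4809, 5063, 4941 and 4925 in controls 1 to 5. The groups did not overlap in either gene, and the steps were small (log2 fold change 0.38 ± 0.087, adjusted p = 0.0289 for Arpc1b, and log2 fold change 0.31 ± 0.070, adjusted p = 0.0260 for Arpc3). Arpc1b lost its call in the fits without Cosmc KO 2, 3 or 4 or any of controls 2 to 5 (adjusted p = 0.0505 to 0.0812), and Arpc3 without Cosmc KO 2 or 3 or any of controls 2 to 5 (0.0565 to 0.0828). The other 2 measured subunits of the set, Arpc2 and Arpc5, had log2 fold changes of -0.021 (adjusted p = 0.890) and -0.054 (adjusted p = 0.737).

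Profilin 1 (Pfn1), which hands actin monomers to growing ends, and Vasp, which speeds elongation, lay above all controls in every Cosmc KO library without passing the threshold. Vasp had 7582, 7359, 7192 and 8073 in Cosmc KO 1 to 4, against 6876, 5124, 6652, 5659 and 5458 in controls 1 to 5 (log2 fold change 0.35 ± 0.099, adjusted p = 0.0599), and Pfn1 had 19976 ± 1981 in Cosmc KO glomeruli and 15700.1 ± 1122 in control glomeruli (SD, n = 4 and 5; log2 fold change 0.35 ± 0.096, adjusted p = 0.0566). Both passed without Cosmc KO 1 (adjusted p = 0.0396 for Vasp and 0.0109 for Pfn1), and Vasp also without control 1 (0.0473). Evl, a relative of Vasp, had 1218, 1342, 1525 and 1778 in Cosmc KO 1 to 4, against 1124, 954, 1047, 1350.3 and 1288 in controls 1 to 5 with overlapping groups (log2 fold change 0.34 ± 0.14, adjusted p = 0.144), and passed without Cosmc KO 1 (0.0423). Evl/Vasp was 0.161, 0.182, 0.212 and 0.220 in Cosmc KO 1 to 4, against 0.164, 0.186, 0.158, 0.239 and 0.236 in controls 1 to 5 (difference of log2 ratios -0.0077, exact permutation p = 0.968, adjusted p = 0.968).

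The monomer-binding thymosins did not pass. Tmsb4x, thymosin beta 4, had 88992, 52015, 57341 and 63922 in Cosmc KO 1 to 4, against 80738, 63584, 69005, 61557 and 73475 in controls 1 to 5, with overlapping groups (log2 fold change -0.11 ± 0.17, adjusted p = 0.700). Tmsb10 and Enah, a further Vasp relative, had log2 fold changes of 0.11 (adjusted p = 0.701) and 0.14 (adjusted p = 0.437). On the per-length scale Tmsb4x was the most abundant of the 43 transcripts (3805 ± 1209.5 TPM in Cosmc KO and 4262 ± 647 TPM in control glomeruli, SD), ahead of Actb (2987 ± 271 TPM in Cosmc KO and 2827 ± 348 TPM in control glomeruli), while Myh14 was the least abundant (3.33 ± 1.74 TPM in Cosmc KO and 3.93 ± 1.2 TPM in control glomeruli).

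Capg, a gelsolin relative that caps the fast-growing end of filaments without cutting them, stood apart in the severing and capping group. Capg (chromosome 6, 72544391 to 72562983, plus strand) had 1775, 2677, 2012 and 2133 in Cosmc KO 1 to 4, against 1194, 999, 1100.4, 1168 and 1217 in controls 1 to 5. No control reached the lowest Cosmc KO library, and Cosmc KO 2 was the highest (log2 fold change 0.91 ± 0.12, adjusted p = 0.00243). The severing proteins cofilin 1 (Cfl1) and gelsolin (Gsn) had log2 fold changes of 0.26 (adjusted p = 0.123) and -0.25 (adjusted p = 0.335). The capping subunit Capzb had 0.15 (adjusted p = 0.221) and the filament-binding Cotl1 0.31 (adjusted p = 0.344). Without Cosmc KO 1 Cfl1 and Cotl1 passed as higher (adjusted p = 0.044 and 0.0122), whereas without Cosmc KO 2 and 3 together Cotl1 was at -0.087.

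Capg is also known from macrophages, so immune markers are given beside it. Their summed counts were 13308 to 17269 in Cosmc KO libraries, against 5799.8 to 10936 in control libraries, without overlap. Of the 10 markers 4 rose (Csf1r, C1qa, C1qb and Cd74), where 4.16% of all genes did. In the other direction 0 fell (0 with an unadjusted limma p under 0.05, and 0 by edgeR or DESeq2), where 3.58% of all genes did. The part of these cells in the Capg difference was not tested.

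Of the 8 focal adhesion and LIM proteins 4 rose. Pdlim1 and Pdlim7 carry a PDZ domain, which binds alpha-actinin in Pdlim1 and beta-tropomyosin in Pdlim7, and LIM domains that recruit other proteins. Pdlim1 (chromosome 19, 40221173 to 40271842, minus strand) had 773, 721, 683 and 845 in Cosmc KO 1 to 4, against 410.4, 404, 382, 449 and 451 in controls 1 to 5, and Pdlim7 had 2144, 2576, 2583 and 2248 in Cosmc KO 1 to 4, against 1800.3, 1319.8, 1526, 1428 and 1374 in controls 1 to 5. Neither gene's groups overlapped (log2 fold change 0.85 ± 0.10, adjusted p = 0.00155 for Pdlim1, and log2 fold change 0.68 ± 0.11, adjusted p = 0.00521 for Pdlim7).

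Zyxin (Zyx, chromosome 6, 42349630 to 42360213, plus strand), which brings Vasp to strained filaments and adhesions, had 5149.9, 6374, 5755 and 6445 in Cosmc KO 1 to 4, against 3993, 2608, 3753, 3579.7 and 2980.2 in controls 1 to 5. All 4 Cosmc KO libraries lay above every control (log2 fold change 0.82 ± 0.13, adjusted p = 0.00633). Vinculin (Vcl), which reinforces the link from talin to actin, had 10727, 8679, 9639.6 and 9641 in Cosmc KO 1 to 4, against 7887, 7236, 8097, 7206 and 5827 in controls 1 to 5 and rose by a smaller step (log2 fold change 0.42 ± 0.11, adjusted p = 0.0425). Vcl kept its call in just 1 of the 9 fits that left out a library, the one without Cosmc KO 1, and its adjusted p was 0.0512 to 0.116 in the others. Talin 1 (Tln1), paxillin (Pxn), Lasp1 and Pdlim5 had log2 fold changes of 0.044 (adjusted p = 0.827), 0.13 (adjusted p = 0.435), -0.084 (adjusted p = 0.586) and 0.17 (adjusted p = 0.409).

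Iqgap1, a scaffold that binds actin, Rac1 and Cdc42, had 31673, 21088, 24038 and 24976 in Cosmc KO 1 to 4, against 19666, 16051, 16718, 17959 and 17671 in controls 1 to 5. Cosmc KO 1 was far above the other 3 Cosmc KO libraries, which still exceeded all controls (log2 fold change 0.52 ± 0.12, adjusted p = 0.0332). The call was lost without Cosmc KO 3 or 4 or any of controls 2 to 5 (adjusted p = 0.0694 to 0.0819). Its GTPase partners, Rac1 and Cdc42, which drive lamellipodia and filopodia, had log2 fold changes of -0.00096 (adjusted p = 0.996) and -0.034 (adjusted p = 0.848).

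**Figure D3:**
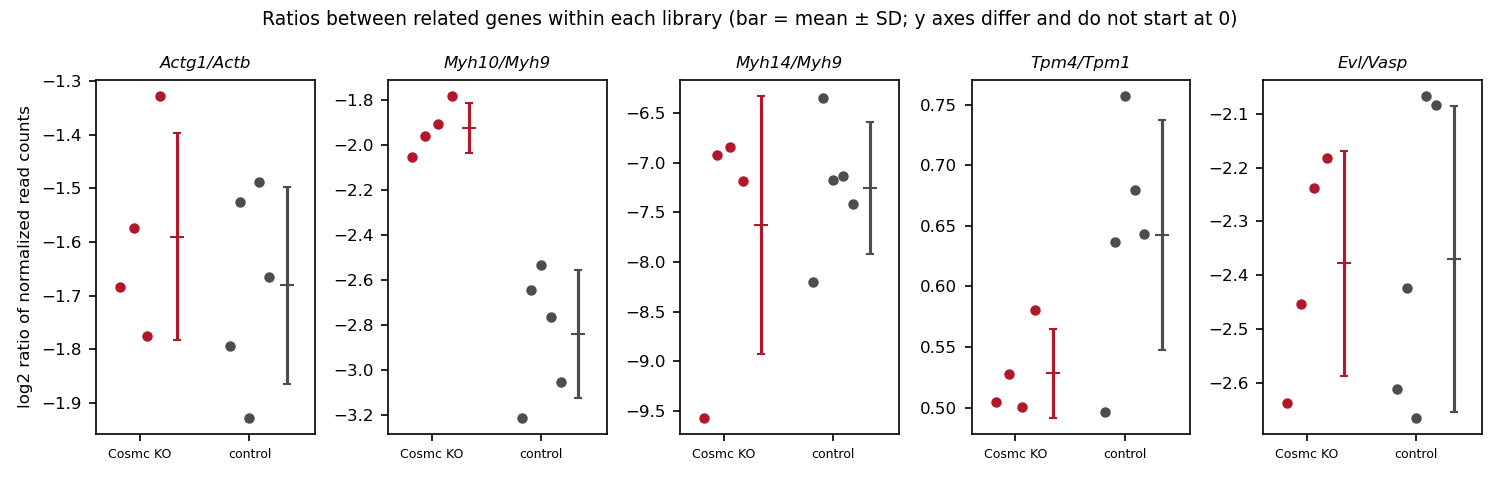
Log2 ratios of normalized read counts between 5 of the 6 pairs of related genes in each library, Cosmc KO left and control right, with mean ± SD (n = 4 and 5); each y axis has its own range and does not start at 0. Myh10/Myh9 (difference 0.92) is the one ratio of the 6 past the adjusted threshold; Myh14/Myh9 has a single low Cosmc KO library at -9.57.

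The promoter windows of the genes, from 250 bases before to 50 after the start in RefSeq (GRCm38.p6), were searched for the CArG box, whose pattern reads the same on both strands. A window was at hand for 39 of the 43 genes, and the rest, Actb among them, were not searched. Of the 39 genes 3 held the box (7.69%), against 187 of 11778 genes tested that had a window (1.59%). They are the 3 below, of which Vcl alone rose (1 of the 14 genes that rose, 7.14%). They are shown since the box is the element through which SRF is known to reach actin genes; a match is a description of letters. Capitals mark the box, and each sequence runs 5′ to 3′ on the gene's own strand. The windows are chr14:20929148-20929447, plus strand, for Vcl, chr11:120348446-120348745, minus strand, for Actg1, and chr10:128492960-128493259, minus strand, for Myl6, and the box begins 227, 90 and 50 bases before the start.
Vcl: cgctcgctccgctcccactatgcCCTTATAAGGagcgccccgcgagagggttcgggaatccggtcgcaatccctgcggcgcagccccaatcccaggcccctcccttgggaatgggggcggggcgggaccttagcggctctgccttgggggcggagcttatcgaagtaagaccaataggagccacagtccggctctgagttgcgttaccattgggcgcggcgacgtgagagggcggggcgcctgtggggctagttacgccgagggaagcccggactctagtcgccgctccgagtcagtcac
Actg1: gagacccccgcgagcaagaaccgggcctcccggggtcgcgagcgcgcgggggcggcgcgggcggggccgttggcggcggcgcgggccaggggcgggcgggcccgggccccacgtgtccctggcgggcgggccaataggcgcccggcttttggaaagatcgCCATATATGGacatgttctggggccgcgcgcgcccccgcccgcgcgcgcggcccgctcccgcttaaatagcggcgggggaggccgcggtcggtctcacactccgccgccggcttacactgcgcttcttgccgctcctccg
Myl6: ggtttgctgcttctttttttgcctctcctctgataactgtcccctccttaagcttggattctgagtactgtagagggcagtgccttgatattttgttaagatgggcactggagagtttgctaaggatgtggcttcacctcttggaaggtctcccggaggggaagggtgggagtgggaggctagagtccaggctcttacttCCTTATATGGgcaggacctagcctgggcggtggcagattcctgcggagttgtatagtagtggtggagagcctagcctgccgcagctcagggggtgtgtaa

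The factors behind this element and their other known targets were then examined as a list of 17 genes, 15 of them tested. The list had 6 genes that rose and 0 that fell (median log2 fold change 0.46), where 4.16% of all genes rose and 3.58% fell. None of the list was called lower by edgeR or DESeq2, and 1 was lower at an unadjusted limma p under 0.05. Cyr61, a secreted matricellular protein, had 11923, 11811, 10902 and 13826 in Cosmc KO 1 to 4, against 6119, 5464, 4109, 6274 and 5725 in controls 1 to 5 (log2 fold change 1.14 ± 0.13, adjusted p = 0.00127). The smooth muscle protein Tagln, the muscle LIM protein Fhl1 and the calponin Cnn2 rose by 1.09 (adjusted p = 0.00662), 0.78 (adjusted p = 0.00594) and 0.64 (adjusted p = 0.00539) on the log2 scale, and Tagln2 and Acta2 by 0.52 (adjusted p = 0.00633) and 0.60 (adjusted p = 0.0386). Srf itself had 0.22 (adjusted p = 0.190), and the MRTF genes Mkl1 and Mkl2 had 0.16 (adjusted p = 0.242) and 0.0061 (adjusted p = 0.984). Between 5 and 6 of the targets rose in each fit without 1 library, where 2.08% to 14.5% of all genes did. Without Cosmc KO 2 and 3 together 2 rose, where 1.34% of all genes did. With the replicate number as a block (control 5 left out, as no Cosmc KO library has its number), 6 rose and 1 fell. In that fit 9.55% of all genes rose and 1189 of 16764 fell.

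Further focal adhesion genes gave 8 higher and 1 lower of 33 tested (median 0.22), where 4.16% of all genes were higher and 3.58% lower. The LIM proteins Pdlim4 and Fblim1 and the filament binder Nexn rose by 1.32 (adjusted p = 0.00999), 0.99 (adjusted p = 0.00243) and 0.70 (adjusted p = 0.00786) on the log2 scale. The kinase Pak1, an effector of Rac1 and Cdc42, went the other way, with 9579.6, 3737, 5089 and 6099 in Cosmc KO 1 to 4, against 16424, 12849.8, 11700.4, 14186 and 16581 in controls 1 to 5 (log2 fold change -1.30 ± 0.24, adjusted p = 0.0109). In fits without 1 library 4 to 10 of the list were higher (2.08% to 14.5% of all genes) and 1 to 5 lower (175 to 2445 of 16764 genes). Against Cre-carrying controls alone 3 were higher (1.69%) and 1 lower (154 genes). With the mean log2 level of proximal tubule markers as a covariate 4 were higher (2.92%) and 1 lower (1.91%). Without Cosmc KO 2 and 3 together 2 were higher (1.34%). The calls of Pak1 (log2 fold change -0.90, adjusted p = 0.0767) and Pdlim4 (1.35, adjusted p = 0.0844) were lost there. The call of Nexn was lost against Cre-carrying controls alone (adjusted p = 0.0570). With the replicate number as a block there were 9 higher (9.55% of all genes) and 3 lower (1189 of 16764 genes).

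Other actin dynamics genes showed little shared movement, with a median of 0.063. Of 35 genes 2 were higher and 1 lower, where 4.16% of all genes were higher and 3.58% lower. The rises were Flnc, the muscle filamin, with 212, 283, 234 and 117 in Cosmc KO 1 to 4, against 77.2, 61.5, 27.0, 50.5 and 31.3 in controls 1 to 5 (log2 fold change 2.11 ± 0.36, adjusted p = 0.00826), and cortactin (Cttn), which binds Arp2/3 at branches, at 0.26 (adjusted p = 0.0329). The formin Diaph2 fell, at -0.57 (adjusted p = 0.0441). Cttn and Diaph2 kept their calls in 1 of 9 fits without 1 library, the one without Cosmc KO 1 (adjusted p = 0.0562 to 0.0979 and 0.0555 to 0.1 in the others). Both calls were also lost against Cre-carrying controls alone (adjusted p = 0.143 and 0.102) and with the mean log2 level of proximal tubule markers as a covariate (adjusted p = 0.127 and 0.159). With the replicate block 4 of the list were higher (9.55% of all genes) and 2 lower (1189 of 16764 genes). Cttn was not among them (log2 fold change 0.25, adjusted p = 0.0682). Without Cosmc KO 2 and 3 together Flnc lost its call as well (1.76, adjusted p = 0.117).

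The remaining Arp2/3 and WAVE genes gave 0 higher and 0 lower of 18 by limma, where 4.16% of all genes were higher and 3.58% lower. At an unadjusted limma p under 0.05, 1 was higher and 1 lower, where 12.9% of all genes were higher. DESeq2 called 0 higher and 1 lower (1245 of 16764 genes lower), and edgeR 0 in either direction. Limma with the replicate block called 1 in each (9.55% of all genes higher, 1189 of 16764 lower). Their median was -0.068, and the most abundant, Actr2 and Nckap1, had log2 fold changes of -0.030 (adjusted p = 0.869) and -0.095 (adjusted p = 0.536).

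**Figure D4:**
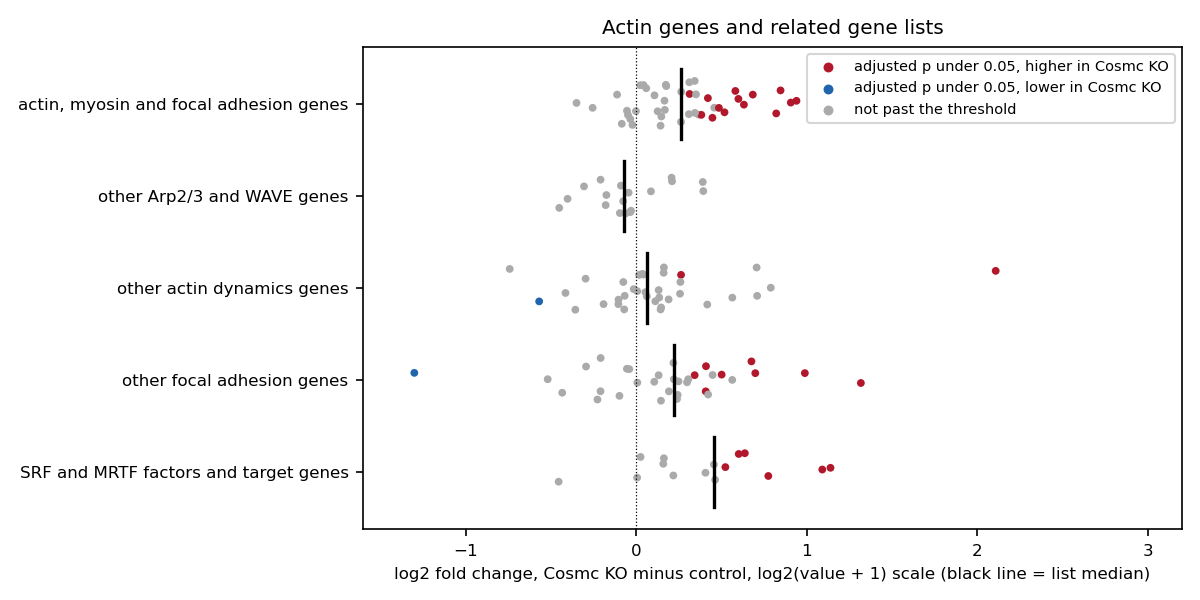
Log2 fold change (Cosmc KO minus control) of each tested gene in the 43-gene set and 4 related lists, coloured by the limma call, with a black line at each list's median. The SRF and MRTF list has the highest median (0.46), followed by the 43 genes (0.26), and the other Arp2/3 and WAVE genes the lowest (-0.068).

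Markers of the cells in the preparation also moved. Over all genes tested 4.16% rose and 3.58% fell in the main limma fit. By DESeq2 8.55% were higher, and 12.9% were higher at an unadjusted limma p under 0.05. Of 12 podocyte markers 7 fell and 0 rose, with summed counts of 383076 to 1022804 in Cosmc KO libraries, against 1005403 to 1450931 in control libraries, and of 10 parietal epithelial markers 3 rose and 1 fell, with 18325 to 24068 in Cosmc KO libraries, against 9425 to 11679 in control libraries. Mesangial and vascular muscle markers, which share Acta2, Tagln and Cnn1 with the SRF list, had 2 of 12 higher and 1 lower. Their sums overlapped at 107438 to 158871 in Cosmc KO libraries, against 118244 to 172898 in control libraries. Glomerular endothelial markers (1 of 10 higher, 0 lower) and distal nephron markers (0 of 10 higher, 1 lower) overlapped too, at 308577 to 409875 in Cosmc KO libraries, against 312701 to 385872 in control libraries, and 72919.8 to 187233 in Cosmc KO libraries, against 102967 to 215357 in control libraries. Proximal tubule markers had 0 of 14 called, all 14 positive, with 4 at an unadjusted limma p under 0.05, 3 called higher by DESeq2 and 0 by edgeR; their sums were 76036 to 671966 in Cosmc KO libraries, against 47768 to 233103 in control libraries. The 6 red blood cell markers had 0 called, 5 lower at an unadjusted limma p under 0.05, 2 lower by DESeq2 and 0 by edgeR, with sums of 5577 to 30401 in Cosmc KO libraries, against 27179 to 46396 in control libraries. The counts of 0 for podocyte, endothelial and distal markers were 0 by edgeR and DESeq2 too, and at an unadjusted limma p under 0.05 just 1 endothelial marker was lower. In fits without 1 library 0 to 10 podocyte markers fell, where 175 to 2445 of the 16764 genes tested fell. Without Cosmc KO 1, where 14.5% of all genes rose, 9 parietal and 13 proximal tubule markers rose. With the replicate block 10 podocyte and 4 red blood cell markers fell, where 1189 of 16764 genes fell. In the same fit 7 parietal, 13 proximal tubule and 7 immune markers rose, where 9.55% of all genes did. No marker was at 0 in every library, and the part of podocyte, parietal, red cell and immune content in the 14 rises was not tested.

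The rises were also counted with a score of proximal tubule markers in the fit and against Cre-carrying controls alone. The score stands in for tubule content, which was not measured, and its mean was 12.93 in Cosmc KO, against 11.56 in controls. With the tubule score (the mean log2 level of its markers) as a covariate, 10 of the 43 genes rose, where 2.92% of all genes did. Against the 3 Cre-carrying controls alone, 5 rose, namely Myh10, Capg, Zyx, Pdlim1 and Pdlim7, where 1.69% of all genes did. The 2 Cre-free controls left out there had tubule scores of 12.54 and 12.46, above the 10.26 to 11.73 of the controls kept. Without Cosmc KO 2 and 3, the Cosmc KO libraries with the highest tubule scores (13.92 and 13.87, against 10.26 to 12.54 in controls), 4 rose, namely Myh10, Capg, Pdlim1 and Iqgap1, where 1.34% of all genes did. That fit kept Cosmc KO 1, with a score of 11.03, and Cosmc KO 4, whose score of 12.89 was also above all controls. In fits without 1 library 9 to 19 rose: 9 without Cosmc KO 3, where 2.08% of all genes did, and 19 without Cosmc KO 1, where 14.5% did. With the replicate number as a block 17 rose (9.55% of all genes), with DESeq2 18 (8.55%) and with edgeR 14 (4.3%). Without control 3, whose step between values is close to 1, DESeq2 gave 18 (7.44%) and edgeR 9 (2.83%). Myh10, Capg and Pdlim1 were called under every setting run, and all 14 genes kept a positive log2 fold change in each.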

How the data were processed

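Poly(A) RNA of isolated glomeruli was sequenced from 4 Cosmc KO and 5 control males. Tools in the submitters' processing notes are STAR 2.5.2b, featureCounts, Subread 1.5.2 and DESeq2, with the build GRCm38; the annotation, the filters and whether counting used strand are not given in the sources used here. The deposited sample values are a signal, namely read counts after division by 1 size factor for each library, per the file headers and the values. The authors' deposited table also holds a log2 fold change, a Wald score and a p-value per gene. In each library 100% of values were whole multiples of 1 step within 0.01 of it, so reads were recovered. For control 3 the step (1.001) is so close to 1 that small values alone cannot test this, but 100% of its values passed.

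The plan named a count test for raw counts and limma for scaled values. As the values are scaled, limma 3.58.1 (R 4.3.3) with a mean-variance trend was run on log2(value + 1). It covered 16764 of 16867 genes (at least 10 in 4 libraries). Benjamini-Hochberg adjusted p under 0.05 was called. This scale understates changes of genes with low values. The 23 alternatives included edgeR 4.0.16 and DESeq2 1.42.0 on recovered reads, each also without control 3 (2 alternatives chosen after seeing the data). The fit was tested on simulated data. Ratios used an exact two-sided permutation test over libraries. Per-length levels (TPM) used merged exon lengths of the GENCODE vM21 annotation on GRCm38; 6 of the 14 genes that rose (Actn1, Tpm4, Arpc1b, Zyx, Vcl and Iqgap1) share exon bases with a gene on the opposite strand, and without strand the reads of both could not be told apart.

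The labels number the libraries within each group and name no litter or batch; p-values measure the spread between these libraries. Same-numbered animals share an age where both groups have one. The correlations of their deviations from the group means were 0.54, 0.51, 0.34 and 0.27 for numbers 1 to 4, all above 0.1. Some libraries of other numbers also deviated together. The correlation was 0.53 for Cosmc KO 3 (31 days old) with control 2 (34 days old). It was 0.33 for Cosmc KO 4 with control 5, which were both 30 days old and so share an age as well. These correlations therefore do not establish pairs. The deposited column names also run in sequence within each age, but no label ties animals to a litter. The replicate numbers were used as a block in an alternative fit, without control 5. The main fit and main permutation tests did not use them. Every pair of libraries differed by more than counting noise (chi-square per degree of freedom at least 26.1). Genes printed with every library's value were those called, those in the 6 ratios and the 3 with the most reads; from each related list up to 4 called genes with the largest change were named, or the 2 most abundant where none was called. Flna, Tagln2, Acta2, Srf, Mkl1 and Mkl2, and the marker genes, were named after their values were seen. Of the 43 genes 3, with 1 ratio and 1 related list, are not reported here. The set of genes and the lists were chosen with earlier results of these data known.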

Additional observations from a re-analysis of the deposited data

Results flagged for a closer look

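Of 98 sets of values tested for a sample far from the others of its group, 2 held one, while chance gives about 4.9. Actn1, alpha-actinin 1, was at 7534 normalized read counts in control 1, and the other 4 controls lay between 5654 and 5975, so the gap to the nearest filled most of the range of the controls. Without control 1 the log2 fold change of Actn1 was 0.52 (limma adjusted p = 0.0274), against 0.45 with it. The log2 ratio of Myh14 to Myh9 was -9.57 in Cosmc KO 1, and the other 3 Cosmc KO libraries lay between -7.19 and -6.84. Without that library the Cosmc KO minus control difference of this ratio was 0.27, against -0.37 with it, and neither passed the exact permutation test (adjusted p = 0.664 without Cosmc KO 1 and 0.781 with all libraries).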

How the results depend on the processing

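Genes called over the whole table numbered 1298 (53.8% of them higher), and 2679 with DESeq2, 2202 with DESeq2 without control 3, 438 against Cre-carrying controls only, 809 with the tubule covariate and 305 without Cosmc KO 2 and 3 together. Leaving out 1 library gave 523 to 4884, the highest without Cosmc KO 1. The share of higher genes among those called was 43.3% with voom and 44.3% with TMM. Of the 43 genes 14 rose, against 18 with DESeq2, 9 with edgeR without control 3, 5 against Cre-carrying controls only, 4 without Cosmc KO 2 and 3 together and 9 to 19 without 1 library; 1 fell with the tubule covariate. Over 13 of the 14 genes and 23 alternatives, 240 of the values kept their call and 59 lost it, none changing direction. Rescaling by TMM moved the median of all genes to -0.015.

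The block for replicate number called 2790 genes and 17 of the 43 as higher (Flna, Myl12a and Evl added, where 9.55% of all genes were higher). In the pairing by number Myh10/Myh9 differed by 0.86 (adjusted p = 0.375, with 0.125 the smallest p of 16 sign flips) and Evl/Vasp by 0.064. Libraries of other numbers also deviated together, Cosmc KO 3 with control 2 at 0.53. The block values of Myh9, Arpc2 and Tln1 changed sign, to -0.00049, 0.0058 and -0.0079. Its other calls among the 43 genes did not change.

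Myh10/Myh9 was 1.08 against Cre-carrying controls only (adjusted p = 0.171, smallest p 0.0286), 0.92 without Cosmc KO 2 and 3 together (0.286, smallest p 0.0476), and 0.82 to 0.99 without 1 library (0.0571 to 0.171); in these designs a single ratio at the smallest possible p cannot pass adjustment over 6. Leaving out 1 library gave ranges of -0.64 to 0.27 for Myh14/Myh9 and -0.082 to 0.079 for Evl/Vasp.

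Other sign changes were all in genes not called in the main fit, Myh14 among them, and the cause was not tested. Myh9 was -0.0069 against Cre-carrying controls only. With the tubule covariate Arpc2 was 0.087, Arpc5 0.078, Tmsb4x 0.14, Cdc42 0.097 and Rac1 0.096. Without Cosmc KO 2 and 3 together they were 0.056, 0.10, 0.12, 0.10 and 0.12, while Tmsb10 was -0.10, Cotl1 -0.087 and Pxn -0.0092. Rac1 was 0.0063 with DESeq2 and 0.015 with DESeq2 without control 3. Ranges without 1 library were -0.028 to 0.11 for Myh9, -0.64 to 0.24 for Myh14, -0.062 to 0.016 for Arpc2, -0.12 to 0.0084 for Arpc5, -0.0091 to 0.18 for Tmsb10, -0.0079 to 0.12 for Tln1, -0.12 to 0.028 for Cdc42 and -0.080 to 0.048 for Rac1.

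Each of the 14 genes that rose had at least 381.5 normalized read counts in every library, and an effect of depth was not tested. The 4 against 5 design limits small steps, and 9 of the 14 were called in every fit without 1 library, among them Myh10, Tpm1, Tpm2, Tpm4, Capg, Zyx, Pdlim1 and Pdlim7.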

Other observations

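Among the controls alone, the 3 animals with Podo-Cre had a mean Myh10 value of 6448 normalized read counts and the 2 without Cre 8176, a log2 difference of -0.34 that was not tested. The Cosmc KO libraries, all of which carry Podo-Cre, lay above every control. Myh14 had the widest such gap, with a mean of 272 in Cre-carrying and 464 in Cre-free controls (-0.75). For Evl the order was the opposite, with 1254 in Cre-carrying and 1001 in Cre-free controls (0.32). Over the 43 genes the median log2 difference, Cre-carrying minus Cre-free, was 0.077, and over all genes 0.020. The 2 Cre-free controls also had the highest proximal tubule scores of the controls (12.54 and 12.46, against 10.26 to 11.73 in Cre-carrying controls). Cre and tubule content therefore cannot be told apart in these differences.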
